A study of Mus musculus with 6 samples.

Results

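The mitochondrial respiratory chain was examined in 3 Apc+/- and 3 Apc+/-Atg7-/- samples of normal mouse duodenum on a C57Bl6 background, with 1 whole-transcript array per sample. Both groups carry the Apc+/- genotype, so they differ in Atg7, whose product drives the lipidation step of autophagosome formation. The extent of the Atg7 deletion, the cells that carry it and the age of the mice are not given in the labels. Separate animals are not named either, so each p-value reflects sample-to-sample spread, which may be partly technical. By Xist and Eif2s3y signals, Apc+/-Atg7-/- replicate 1 came from a male and all other arrays from females. The Apc+/-Atg7-/- group therefore holds more than 1 animal, and the groups differ in their mix of sexes. Members were taken by gene symbol from probe sets annotated with exactly 1 gene, using the prefixes of the NADH dehydrogenase, succinate dehydrogenase, cytochrome bc1, cytochrome c oxidase and ATP synthase subunits. This gave 93 of 19938 genes, of which 43 carry complex I names, 8 complex II, 8 complex III, 17 complex IV and 17 complex V. Of the 93, 79 encode subunits, 11 encode assembly factors, and 3 are relatives whose place differs from their name: Ndufa4, whose product is now counted with complex IV, Ndufa4l2, and the supercomplex factor Cox7a2l. Cox7c and Ndufb4 share their probe sets with other genes and were not analysed here, nor were the 13 subunits that mitochondrial DNA encodes.

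Complexes I and II pass electrons from NADH and succinate to ubiquinone, complex III passes them on to cytochrome c, and complex IV passes them to oxygen. Complexes I, III and IV pump protons, and complex V uses the resulting gradient to make ATP. Autophagy is a route by which cells remove damaged mitochondria, and absorptive enterocytes of the small intestine rely on mitochondrial ATP for nutrient transport.

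No member differed between the genotypes past an adjusted p of 0.05 by limma, where 0.11% of all genes did (14 higher and 8 lower). The smallest adjusted p of any member was 0.756, for Cox7a1. At an unadjusted p under 0.05, 0 members were higher, against 2.38% of all genes, and 2 (Cox7a1 and Ndufa1) were lower, which is 2.15% of members against 2.73% of all genes. These shares are near or below the background. The 95% interval of the difference lay within 1.5-fold either way for 92 of 93 members, Cox7a1 being the exception, and for 94.9% of all genes. Intervals that narrow bound the size of a difference and do not show that the genotypes are alike.

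**Figure D1:**
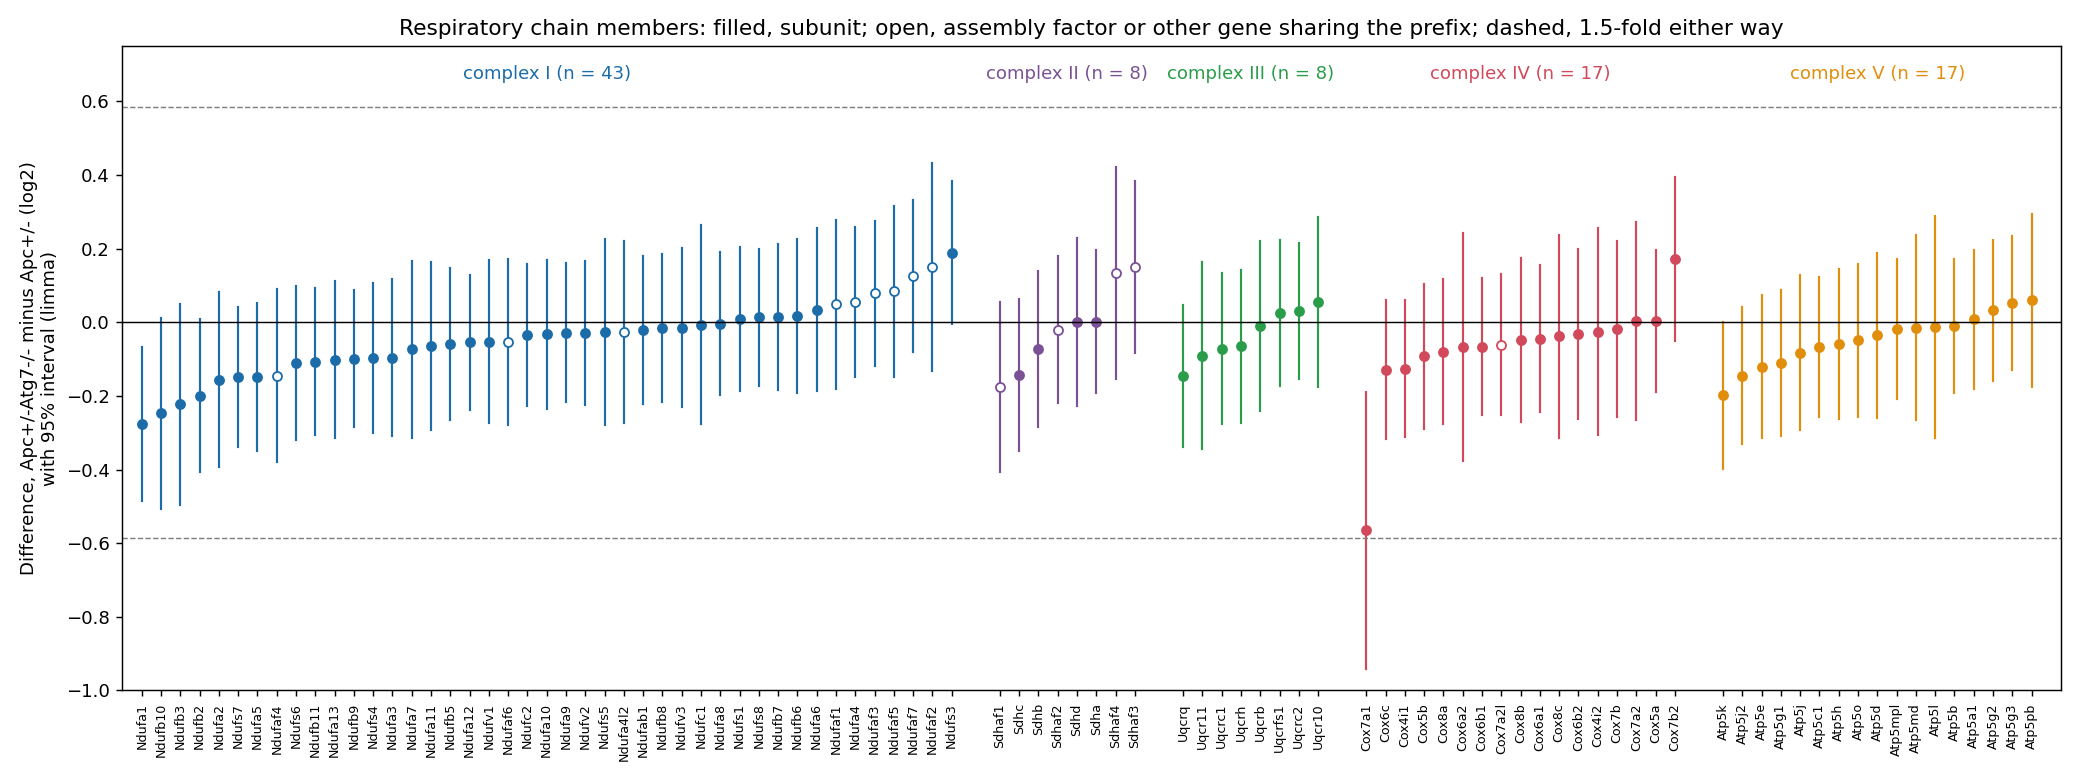
Difference in signal between Apc+/-Atg7-/- and Apc+/- duodenum (vertical axis, log2) for each of the 93 members, ordered within complexes I to V, with limma's 95% interval. Filled points are subunits, open points are assembly factors or relatives sharing the prefix, and dashed lines mark 1.5-fold; only the interval of Cox7a1 crosses one of them.

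Most members lay slightly on the lower side in Apc+/-Atg7-/- duodenum, at sizes close to those of genes in general. Of the 93, 68 were lower and 25 higher, with a median difference of -0.04 (log2) beside -0.02 over all genes, of which 56.8% were lower. The split depended on how the arrays were scaled. It was 71 lower and 22 higher after a further quantile normalization, and 52 lower and 41 higher when each array was centred on its median. By the deposited values, the 3 arrays of each genotype did not overlap for 17 members that were lower (18.3%, against 5.23% of all genes) and for 2 that were higher (2.15%, against 4.81%). With arrays centred on their medians, 2 members were lower and 2 higher without overlap (2.15% each way, against 3.89% and 5.84% of all genes), so both shares fell below the background. After the further quantile normalization the counts were 23 lower (24.7%, against 5.30%) and 2 higher (2.15%, against 5.71%). Leaving out an array raised the share for genes in general too. Without Apc+/- replicate 3, 39 members were lower (41.9%, against 10.6% of all genes) and 2 higher (2.15%, against 9.51%). Without Apc+/- replicate 1, 20 were lower (21.5%, against 20.5%) and 8 higher (8.60%, against 10.4%).

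**Figure D2:**
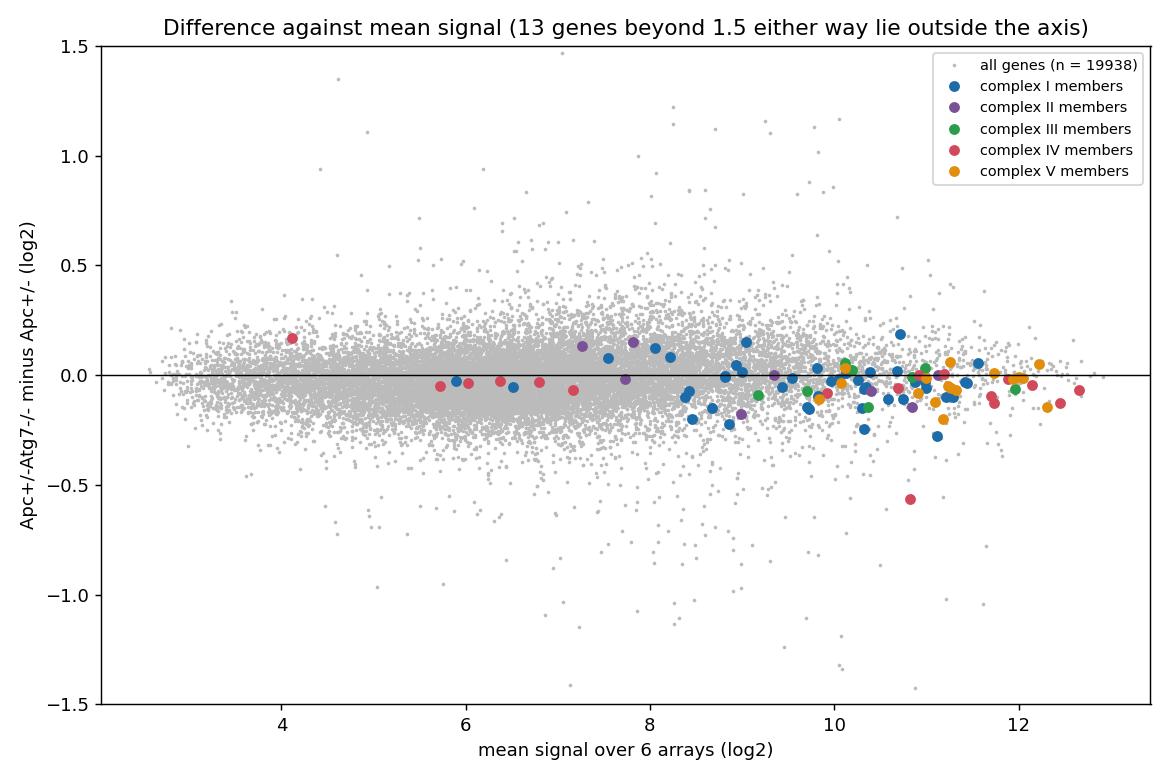
Difference between genotypes (vertical axis, log2) against mean signal over the 6 arrays (horizontal axis, log2) for all 19938 genes in grey, with members coloured by complex. Apart from Cox7a1, the members lie in the narrow middle of the grey cloud; 13 genes fall outside the vertical axis.

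Members were also steady within a genotype. Their median SD between arrays of 1 genotype was 0.085 (log2), against 0.127 over all genes. Many of them are bright on these arrays, and 56 of the 93 had a mean signal of at least 10. Among the 799 genes at that signal the median SD was 0.0884, the median difference was 0.01, and 361 were lower and 438 higher. The 56 bright members had a median SD of 0.0715 and a median difference of -0.04, with 41 lower and 15 higher.

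Some short sequences, which the choice of members did not use, were more frequent in member promoters than in promoters at large. RefSeq promoter windows (GRCm38.p6, 250 bases before to 50 after the start) were found for 77 of the 93 genes, with 82 windows in all. The letters GCGCANGCG, the core of the site of nuclear respiratory factor NRF1, stood on either strand in 24 of the 82 windows (29.3%) and in 6.25% of all 32851 windows. The ETS core CCGGAAG, bound by GABP among others, was in 21 (25.6%, against 8.86%), the YY1 letters AAGATGGCG in 7 (8.54%, against 1.40%), and the ERR half-site AAGGTCA in 7 (8.54%, against 4.72%). A match to NRF1 or ETS stood in 38 of the 82 windows (46.3%, against 13.9%), so most member windows held neither. The 32851 windows cover 27025 genes and are not limited to those measured here. The plain CCAAT box, searched for comparison, was in 34 (41.5%, against 37.4%). Median GC content was 58.5% in member windows and 52.7% over all, and GC-rich letters are met more often in GC-rich windows. A match describes letters and shows no binding.

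The 120 bases upstream of the start are shown for 4 members described below, chosen after their values were seen: the member that differed most (Cox7a1), the subunit with the highest difference (Ndufs3), the complex V subunit with the smallest p (Atp5k), and the catalytic subunit of complex II (Sdha). Capitals mark matches to the NRF1, ETS, YY1 or ERR letters. Cox7a1 lies on the plus strand at chr7:30184051-30184170, and the other 3 on the minus strand, Ndufs3 at chr2:90904722-90904841, Atp5k at chr5:108434400-108434519 and Sdha at chr13:74350241-74350360 (GRCm38.p6).
Cox7a1: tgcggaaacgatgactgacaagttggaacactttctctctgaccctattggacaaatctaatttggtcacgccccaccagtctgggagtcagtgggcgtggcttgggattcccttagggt
Ndufs3: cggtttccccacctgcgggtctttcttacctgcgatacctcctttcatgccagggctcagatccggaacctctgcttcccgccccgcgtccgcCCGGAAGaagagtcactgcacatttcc
Atp5k: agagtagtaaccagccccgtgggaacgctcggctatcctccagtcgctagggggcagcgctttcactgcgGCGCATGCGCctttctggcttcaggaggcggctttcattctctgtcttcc
Sdha: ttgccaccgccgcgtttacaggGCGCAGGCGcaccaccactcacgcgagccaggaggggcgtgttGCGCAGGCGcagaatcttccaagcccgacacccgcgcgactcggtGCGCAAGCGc
In the bases shown, Sdha holds 3 NRF1 matches, Atp5k a palindrome that matches NRF1 on both strands with overlap, Ndufs3 1 ETS match, and Cox7a1 none of the 4.

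Complex I is the largest member group, and its accessory subunits, which surround the catalytic core, were mostly on the lower side without passing. Of 28 accessory subunits 25 were lower and 3 higher (median -0.06), and centring the arrays on their medians gave 19 lower and 9 higher. Of the 6 core subunits, which carry the flavin and iron-sulfur centres or the ubiquinone site, 3 were lower and 3 higher (median -0.01, and 0.02 with centred arrays). The accessory-core difference itself was not tested.

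Ndufa1, a small X-linked membrane subunit needed for assembly, had signals of 11.31, 11.29 and 11.14 (log2) in Apc+/- and 11.05, 10.98 and 10.88 in Apc+/-Atg7-/- replicates 1 to 3. All 3 Apc+/-Atg7-/- arrays were the lower ones. The difference was -0.28 (SE 0.09, 95% interval -0.49 to -0.07, limma adjusted p = 0.841). Apc+/-Atg7-/- replicate 1 came from a male by its Xist and Eif2s3y signals (4.58 and 8.44, against at least 10.1 and at most 3.46 on the other arrays), and without it the difference was -0.32.

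Ndufb10, a disulfide-bearing subunit of the membrane arm, read 10.68, 10.41 and 10.26 in Apc+/- and 10.25, 10.24 and 10.12 in Apc+/-Atg7-/- duodenum. The groups just failed to meet, since the lowest Apc+/- and the highest Apc+/-Atg7-/- arrays were almost level. The difference was -0.25 (SE 0.12, adjusted p = 0.95), and it narrowed to -0.13 without Apc+/- replicate 1. Ndufb2, another membrane-arm subunit, went from 8.67, 8.54 and 8.45 to 8.40, 8.37 and 8.30, again without overlap (-0.20, SE 0.09, adjusted p = 0.95).

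Ndufs3, a core subunit of the hydrophilic arm whose promoter is shown above, had the highest difference of all 93 members. Its signals were 10.56, 10.68 and 10.60 in Apc+/- and 10.86, 10.78 and 10.77 in Apc+/-Atg7-/- duodenum, so every Apc+/-Atg7-/- array was above every Apc+/- array. The difference was 0.19 (SE 0.09, 95% interval -0.01 to 0.38, adjusted p = 0.95). A second Ndufs3 probe set gave nearly the same value, 0.18 (SE 0.08). Both were read from the same samples on the same arrays, so the second is not independent evidence on the genotypes. Ndufs7, the core subunit at the end of the iron-sulfur chain, lay the other way without overlap (-0.15, SE 0.09).

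The other core subunits stayed closer to 0: Ndufs1 at 0.01, Ndufs8 at 0.01, Ndufv2 at -0.03 and Ndufv1, which binds the flavin, at -0.05 (SE 0.08 to 0.10). Of the accessory subunits not yet given, Ndufb9, Ndufb11 and Ndufa12 were lower without overlap, at -0.10, -0.11 and -0.05. The other 22 overlapped, between -0.22 for Ndufb3 and 0.03 for Ndufa6. Without overlap, 21.4% of the 28 accessory subunits were lower, against 5.23% of all genes. With centred arrays these shares were 3.57% and 3.89%. Ndufa4 averaged 11.53 ± 0.10 and 11.58 ± 0.05 (log2, SD, n = 3) in Apc+/- and Apc+/-Atg7-/- duodenum, and its hypoxia-inducible relative Ndufa4l2 5.91 ± 0.15 and 5.88 ± 0.13, both with overlapping arrays.

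The median of the assembly factors had the opposite sign from that of the subunits, but their array means overlapped between genotypes. Of the 11 among the members 7 were higher and 4 lower, with a median of 0.08 (0.11 with centred arrays, and 0.02 to 0.11 with 1 array left out), while the 79 subunits had 62 lower and 17 higher with a median of -0.05. Ndufaf2, a chaperone of complex I assembly, differed by 0.15 (SE 0.13), Ndufaf7, a methyltransferase that modifies a core subunit, by 0.13 (SE 0.09), and Ndufaf4 by -0.15 (SE 0.10). On Ndufaf4 the Apc+/-Atg7-/- arrays read 9.43, 9.74 and 9.74 and the Apc+/- arrays 9.78, 9.80 and 9.76, so 1 array carried most of the difference. Ndufaf1, Ndufaf3, Ndufaf5 and Ndufaf6 differed by 0.05, 0.08, 0.08 and -0.05, all with overlap. Among the 11 factors, 63.6% were higher, against 43.2% of all genes. Without overlap, 0 were higher (against 4.81% of all genes) and 1, Ndufaf4, was lower (9.09%, against 5.23%). The factors' mean deviation ran from -0.07 to 0.05 in Apc+/- and from -0.06 to 0.10 in Apc+/-Atg7-/- arrays. The difference between the 2 groups of genes was not tested.

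The 4 subunits of complex II, which also serves the tricarboxylic acid cycle, showed little movement. Sdha, the flavoprotein, read 11.11, 11.22 and 11.06 in Apc+/- and 11.14, 11.11 and 11.14 in Apc+/-Atg7-/- duodenum, with full overlap. Its difference was below 0.01 in size, with a 95% interval from -0.19 to 0.20. Sdhb, the iron-sulfur subunit, differed by -0.07 (SE 0.10) with overlap.

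Of the membrane anchors, Sdhd had a 95% interval from -0.23 to 0.23 around a difference near 0. Sdhc read 11.03, 10.90 and 10.80 in Apc+/- against 10.77, 10.78 and 10.75 in Apc+/-Atg7-/- duodenum. The Apc+/-Atg7-/- arrays were tightly grouped below the Apc+/- ones (-0.14, SE 0.09, adjusted p = 0.961). Of the assembly factors, Sdhaf1, which helps place iron-sulfur clusters, differed by -0.18 (SE 0.10), Sdhaf2 by -0.02 (SE 0.09), Sdhaf3 by 0.15 (SE 0.10) and Sdhaf4 by 0.13 (SE 0.13). The second probe set of Sdhaf4 gave -0.14 (SE 0.10), so the direction for that gene is unsettled.

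Complex III subunits had 5 lower and 3 higher, with a median of -0.04 that became 0.02 without Apc+/- replicate 1. Among the lower ones, another Uqcr11 probe set gave 0.02, and the others of Uqcrb gave -0.06 and 0.03. Uqcrq, a small ubiquinone-binding subunit, was the 1 of 8 whose groups did not overlap, at 10.46, 10.49 and 10.38 in Apc+/- against 10.25, 10.35 and 10.29 in Apc+/-Atg7-/- duodenum (-0.14, SE 0.09, adjusted p = 0.956). Among all genes, 5.23% were lower without overlap. The Rieske protein Uqcrfs1, which carries the catalytic iron-sulfur centre, differed by 0.03 (SE 0.09). The core proteins Uqcrc1 and Uqcrc2 differed by -0.07 and 0.03 (SE 0.09 and 0.08), the small subunit Uqcrb by -0.01 (SE 0.10), the hinge protein Uqcrh by -0.07 (SE 0.09), and the small subunits Uqcr10 and Uqcr11 by 0.05 and -0.09 (SE 0.10 and 0.11).

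Cox7a1, the heart and skeletal muscle isoform of a complex IV subunit, differed most of all members. It read 11.46, 11.06 and 10.81 in Apc+/- and 10.54, 10.77 and 10.32 in Apc+/-Atg7-/- duodenum. Apc+/- replicate 1 was the highest array and Apc+/-Atg7-/- replicate 3 the lowest, and the lowest Apc+/- array lay just above the highest Apc+/-Atg7-/- array. The difference was -0.56 (SE 0.17, 95% interval -0.94 to -0.19, fold 0.676, limma adjusted p = 0.756). It was -0.39 without Apc+/- replicate 1, -0.41 with array weights and -0.71 without Apc+/- replicate 3, and the adjusted p ran from 0.232 to 0.9999 over the alternatives.

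Its partner isoform Cox7a2, found in most tissues, averaged 10.91 ± 0.22 and 10.92 ± 0.10 (log2, SD, n = 3) with overlap. The other muscle-type isoforms overlapped as well: Cox6a2 at 7.20 ± 0.29 and 7.13 ± 0.10, and Cox8b at 5.75 ± 0.14 and 5.70 ± 0.06, for Apc+/- and Apc+/-Atg7-/- (log2, SD, n = 3). Of 13 genes marking striated muscle, 8 were lower and 5 higher, with a median of -0.03. The list's mean deviation from its genes' averages overlapped between genotypes (-0.08 to 0.08 on Apc+/- and -0.06 to 0.02 on Apc+/-Atg7-/- arrays). Mean signals of those 13 genes ran from 4.88 to 8.54. The part of any cell type in the Cox7a1 values was not tested.

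**Figure D3:**
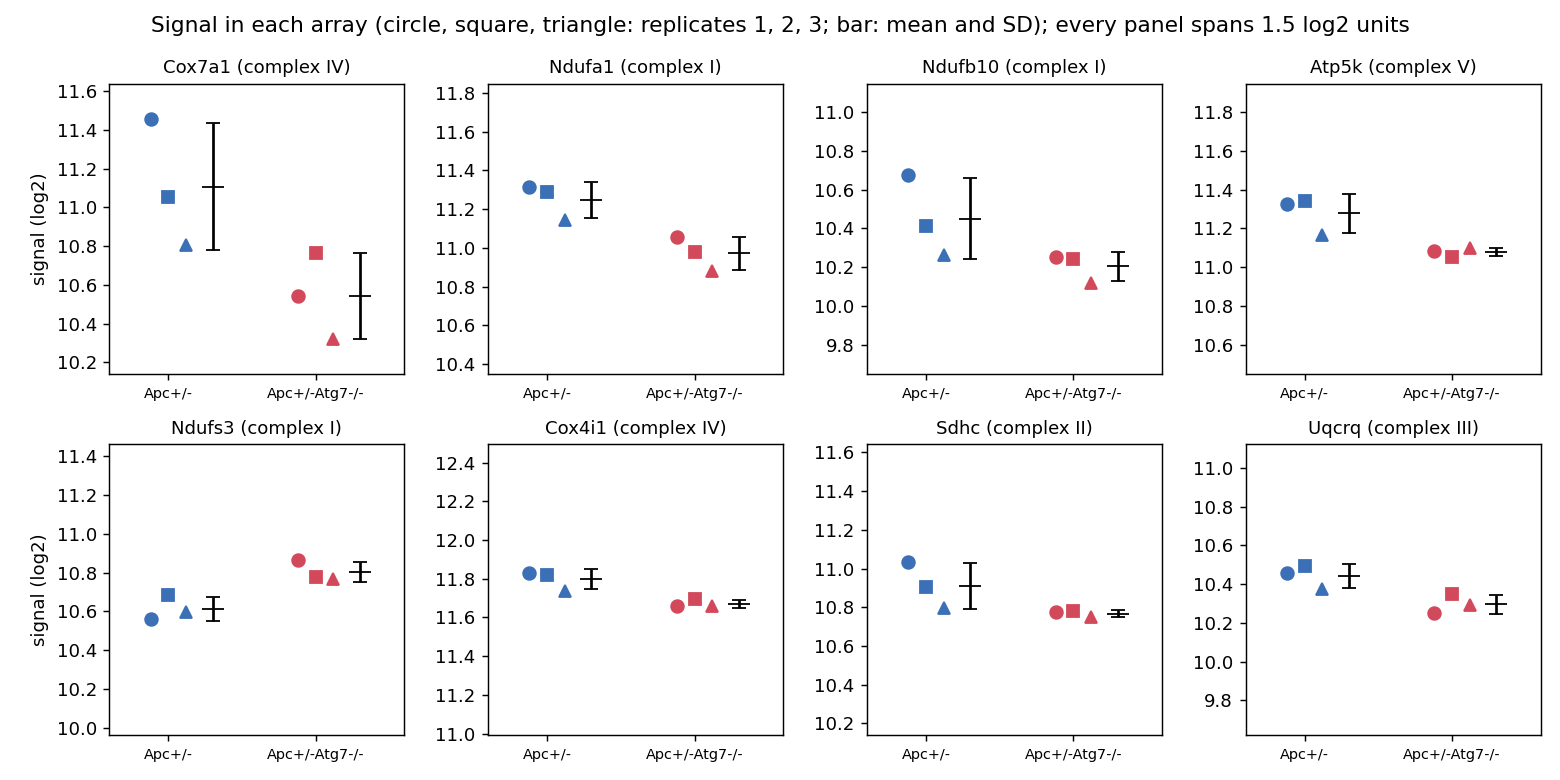
Signal (vertical axis, log2) of 8 members in each Apc+/- (blue) and Apc+/-Atg7-/- (red) array, with replicates 1 to 3 as circle, square and triangle and the mean and SD as black bars. Panels share a span of 1.5 log2 units, so the wider scatter of Cox7a1 within each genotype can be set against the tight groups of Cox4i1 and Atp5k.

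Among the 9 common complex IV subunits, 7 were lower and 2 higher. Cox4i1, the largest nuclear-coded subunit and a site of ATP feedback, read 11.83, 11.82 and 11.74 in Apc+/- and 11.66, 11.70 and 11.66 in Apc+/-Atg7-/- duodenum. The groups lay close together without overlap (difference -0.13, SE 0.08, adjusted p = 0.964). Cox6c showed the same order, from 12.59, 12.50 and 12.47 to 12.40, 12.40 and 12.37 (-0.13, SE 0.08, adjusted p = 0.964). Cox5a and Cox5b differed by less than 0.01 in size and by -0.09 (SE 0.09 each), with overlap.

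The remaining isoform pairs gave overlapping arrays. Cox4i2, the hypoxia-responsive form, differed by -0.03 (SE 0.13), Cox6a1 by -0.04 (SE 0.09), Cox6b1 by -0.07 (SE 0.08) and the testis form Cox6b2 by -0.03 (SE 0.10). Cox7b differed by -0.02 (SE 0.11), its testis form Cox7b2 by 0.17 (SE 0.10), Cox8a by -0.08 (SE 0.09) and Cox8c by -0.04 (SE 0.12). The supercomplex factor Cox7a2l differed by -0.06 (SE 0.09).

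Complex V had 13 lower and 4 higher members and a median of -0.04. Its catalytic F1 beta subunit Atp5b read between 11.98 and 12.02 on all 6 arrays, with a difference of -0.01 (SE 0.08). The alpha subunit Atp5a1 likewise overlapped (0.01, SE 0.08), while the central stalk subunit Atp5c1 was lower without overlap (-0.07, SE 0.08). Atp5d, the delta subunit of F1, differed by -0.04 (SE 0.10).

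The 5 accessory subunits of the membrane domain, which shape ATP synthase dimers, were all lower by the deposited values of their brightest probe sets. Atp5k read 11.33, 11.34 and 11.16 against 11.08, 11.05 and 11.10, and was lower without overlap (-0.20, SE 0.09, 95% interval -0.40 to 0.00, adjusted p = 0.95). Atp5j2 read 12.40, 12.40 and 12.35 against 12.22, 12.28 and 12.21, also without overlap (-0.15, SE 0.08, adjusted p = 0.95). Atp5l, Atp5md and Atp5mpl differed by -0.01, -0.02 and -0.02, and these 3 turned positive with centred arrays. Other probe sets of Atp5l ran from -0.03 to 0.06, so the direction for that gene is unsettled.

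The 3 c-ring genes, which encode identical mature proteins, differed little and not in 1 direction. Atp5g3 was 1 of the 2 members higher without overlap (0.05, SE 0.08), Atp5g2 differed by 0.03 (SE 0.09), and Atp5g1 by -0.11 (SE 0.09). Of the peripheral stalk genes, Atp5pb differed by 0.06 (SE 0.10), and its second probe set by -0.04 (SE 0.09). Atp5h, Atp5j and Atp5o, of the same stalk, differed by -0.06, -0.08 and -0.05 with overlap. Atp5e, the small F1 epsilon subunit, was lower without overlap (-0.12, SE 0.09).

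The 5 complexes showed a similar order of arrays. Subunits of complexes I to V averaged 0.04 to 0.09 above their own means in Apc+/- replicate 1 and 0.04 to 0.10 above them in Apc+/- replicate 2. In Apc+/- replicate 3 complexes I, II, III and V lay 0.06 to 0.07 below, and complex IV 0.01 above. The Apc+/-Atg7-/- arrays ranged from 0.07 below to 0.02 above. The genotypes therefore overlapped in complexes I, II, III, IV and V, through Apc+/- replicate 3.

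**Figure D4:**
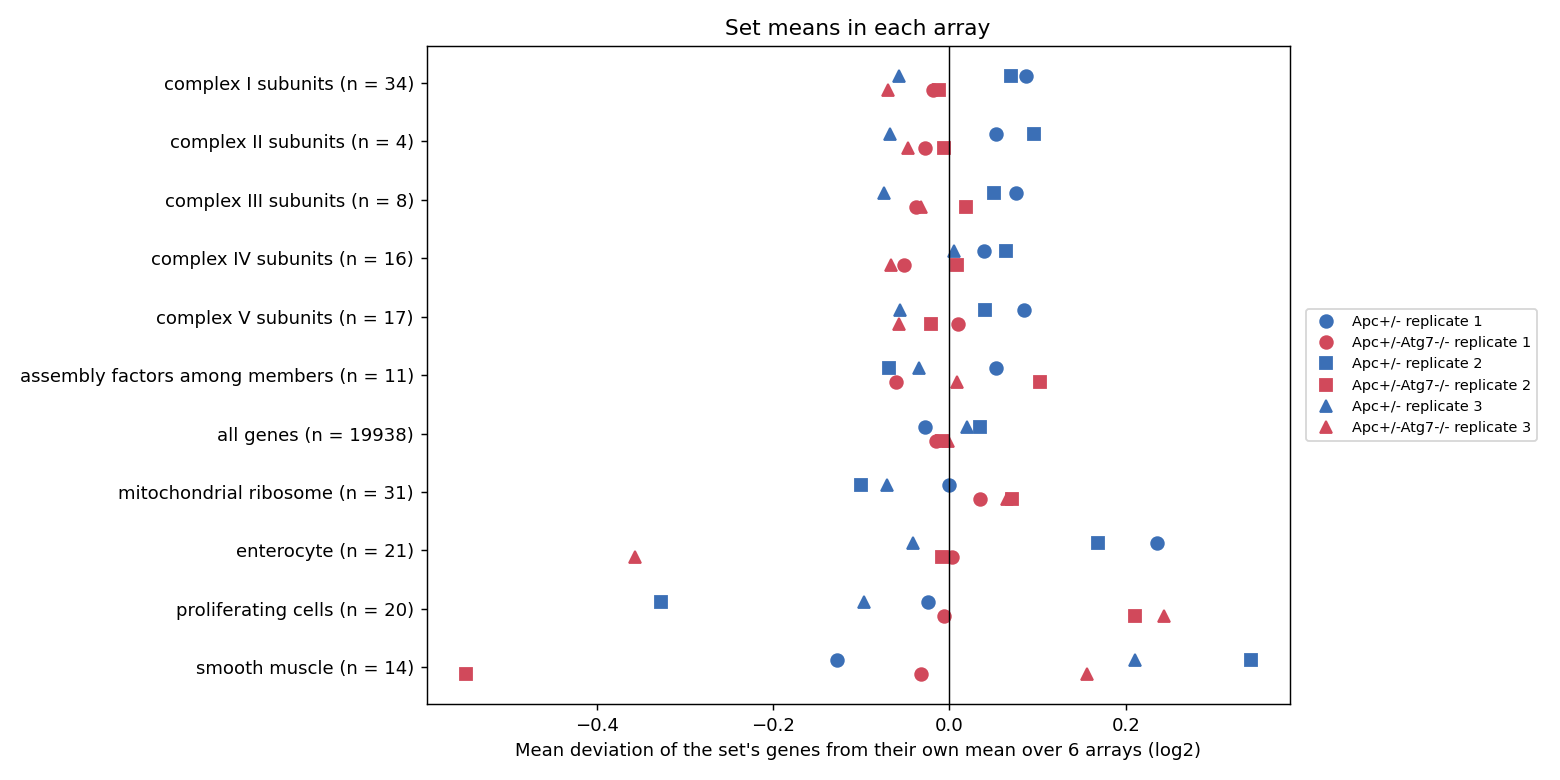
Mean deviation of each set's genes from their averages over the 6 arrays (horizontal axis, log2) for Apc+/- (blue) and Apc+/-Atg7-/- (red) arrays, with replicates 1 to 3 as circle, square and triangle. Subunits of the 5 complexes spread by less than 0.2 in all, and Apc+/- replicate 3 lies among or below the Apc+/-Atg7-/- arrays in complexes I, II, III and V.

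Markers of cell types that could carry these transcripts moved between the arrays too. Of 21 enterocyte genes 19 were lower (median -0.13), and the list's mean deviation ran from -0.04 to 0.24 in Apc+/- and from -0.36 to 0.00 in Apc+/-Atg7-/- arrays. As for the subunits, Apc+/- replicates 1 and 2 were the highest and Apc+/-Atg7-/- replicate 3 the lowest. This order was not particular to enterocyte genes. The superoxide and peroxide defence list had the same highest and lowest arrays, and the immune list the same highest ones. Mep1a (-1.15, SE 0.24), Ace (-0.81, SE 0.28) and Dpp4 (-0.36, SE 0.14), brush border enzymes, had the smallest p of the enterocyte list, and none passed over all genes. All 20 proliferation genes were higher (median 0.31, list deviation -0.33 to -0.02 in Apc+/- and -0.01 to 0.24 in Apc+/-Atg7-/-). Smooth muscle genes were lower for 13 of 14 (median -0.33) with widely overlapping arrays. In bulk tissue, fewer cells of a type and less RNA per cell cannot be told apart, and the part of these markers in the members' values was not tested.

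The remaining cell type lists were 7 of 7 lower for Paneth cells (median -1.02), 7 of 8 for goblet cells (-0.21), 15 of 15 for immune cells (-0.11), 7 of 10 for pancreatic acinar cells (-0.10), 6 of 9 for adipocytes (-0.13) and 2 of 2 for red blood cells (-0.03). Of 11 nuclear-coded housekeeping genes 9 were higher (median 0.06). On the Paneth, goblet and pancreatic lists some genes passed over all genes, and on the others named here 0 did.

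Across 9 lists of mitochondrial genes, 0 genes passed an adjusted p of 0.05 by limma. At an unadjusted p under 0.05 there were 12 of 193 list entries (6.22%, against 5.11% of all genes). These lists include the assembly factors among the members. Mitochondrial ribosome genes, needed to translate the mitochondrial DNA-coded subunits, were higher for 29 of 31, with a median of 0.13 (0.09 to 0.15 with 1 array left out, 0.11 after quantile normalization and 0.16 with centred arrays). Their groups did not overlap for 8, all higher (25.8%, against 4.81% of all genes). Mean signals of these 31 listed genes ran from 6.13 to 9.78, and the background depended on signal. Higher without overlap were 339 of 3475 genes at a signal of 8 to 10, and 369 of 8991 at 6 to 8. In all, 55.3% and 41.5% of those genes were higher. Mrps27 (0.35, SE 0.09), Mrpl13 (0.26, SE 0.10) and Mrps9 (0.19, SE 0.08) had the smallest p. Import and carrier genes were higher for 19 of 26 (median 0.08), led by the outer membrane receptor Tomm20 (0.23, SE 0.09), Timm9 (0.20, SE 0.09) and Timm44 (0.20, SE 0.09).

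**Figure D5:**
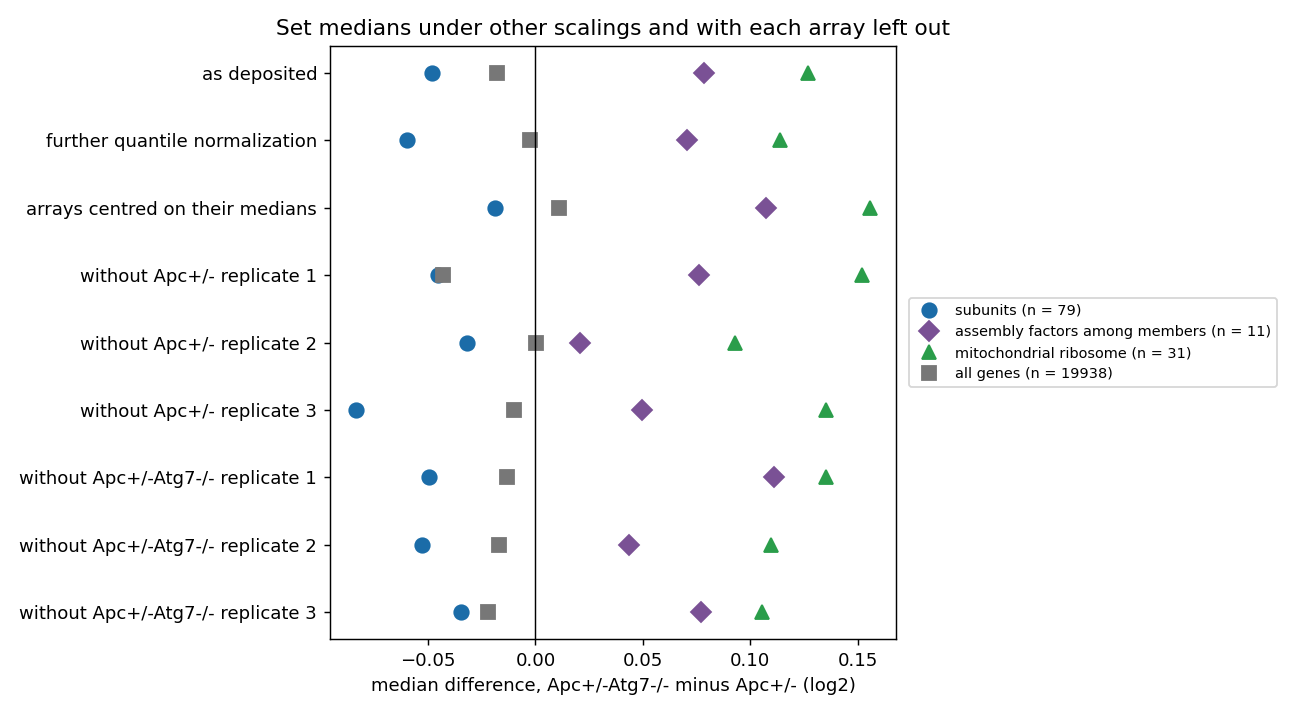
Median difference (horizontal axis, log2) of the 79 subunits, the 11 assembly factors, the 31 mitochondrial ribosome genes and all genes, as deposited, under 2 other scalings and with each array left out. The subunit medians stay between -0.08 and -0.02 and the ribosome medians between 0.09 and 0.16, while those of all genes move between -0.04 and 0.01. Without Apc+/- replicate 1 the subunit median (-0.045) lies close to that of all genes (-0.043).

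The wider lists of assembly factors, which include those among the members, were higher for 11 of 14 genes of complex I (median 0.06) and 19 of 29 genes of complexes II to V (median 0.04). Nubpl, an iron-sulfur carrier for complex I, was highest at 0.39 (SE 0.15), while Lyrm7 and Cox14 differed by -0.20 each (SE 0.09). Cytochrome c and coenzyme Q genes were higher for 9 of 15 (median 0.02), with Coq5, a methyltransferase of coenzyme Q synthesis, at 0.34 (SE 0.11).

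Tricarboxylic acid cycle and pyruvate genes were higher for 9 of 21 (median -0.02), with Suclg2, a succinyl-CoA ligase subunit, at 0.25 (SE 0.09). Regulators of mitochondrial biogenesis were higher for 15 of 24 (median 0.04), and the nuclear receptor Esrrg (0.24, SE 0.09) and the mitochondrial DNA packaging factor Tfam (0.21, SE 0.12) had the smallest p. Mitophagy and dynamics genes were higher for 9 of 21 (median -0.02), with Bcl2l13, a mitophagy receptor, at 0.13 (SE 0.09). Superoxide and peroxide defence genes were higher for 3 of 12 (median -0.03), with the lipid peroxidase Gpx4 at -0.29 (SE 0.12).

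The Atg7 signal itself, as a check of the labels, was 7.16 ± 0.11 on the Apc+/- and 6.63 ± 0.16 on the Apc+/-Atg7-/- arrays (log2, SD, n = 3), lower without overlap and not past the threshold (adjusted p = 0.242). Arrays correlated across probe sets at 0.989 to 0.994, array medians ran from 6.43 to 6.56, and Apc+/- replicate 1 had the lowest array weight (0.417). Precision is limited by 3 arrays per genotype. For 18 members more than 1 probe set carried the symbol, and the brightest stood for the gene; of the 26 other probe sets, differences ran from -0.14 to 0.18 and 0 had an unadjusted p under 0.05. In 6 of the 18 genes at least 1 other probe set had the opposite sign. Many respiratory chain genes have processed pseudogenes of near-identical sequence, so a probe set can mix their signals.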

How the data were processed

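Per the labels' protocols, biotinylated cDNA from duodenal RNA was hybridised to Affymetrix whole-transcript arrays. The authors deposited 1 table of log2 signals, with RMA and Partek named without versions in the submitters' processing notes; the log base was read from the range of the values. Scanner files, detection calls and dates were not used here, so no batch could be fitted. Of 28853 probe sets, 21789 name 1 gene, 1621 name several and 5443 are unlisted in the platform annotation. The brightest probe set stood for each of 19938 genes. limma 3.58.1 in R 4.3.3 (lmFit, eBayes, two-sided) compared Apc+/-Atg7-/- with Apc+/- across all genes, with Benjamini-Hochberg adjustment. An exact permutation test of 3 against 3 cannot give a p below 0.1. The script was tested on simulated data. The text names, per complex, the 4 members with the smallest p, the highest and lowest difference and the brightest, all complex II subunits and the complex IV isoforms, and from each list up to 3 genes with the smallest p; other members named illustrate counts and roles, and were chosen after their values were seen. The members, lists and rules were chosen with earlier results of these data known. Alternatives were a replicate block, quantile normalization, median centring, trend and robust moderation, array weights, 2 filters on dim genes, mean probe sets, subunits only, and each array left out. Figures used matplotlib 3.10.9 in Python 3.11.15.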

Additional observations from a re-analysis of the deposited data

How the results depend on the processing

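Under all 16 settings (the reported fit and its alternatives), 0 members passed an adjusted p of 0.05. Members at an unadjusted p under 0.05 numbered 2 as reported, 6 after quantile normalization (6.45%, against 5.97% of all genes), 8 with trend and robust moderation (8.60% of members, against 5.32% of all genes), 4 and 5 with the dimmest 30% and 50% of genes left out (4.40% and 5.75%, against 6.17% and 7.35%), and 1 to 6 with 1 array left out (1.08% to 6.45%, against 3.57% to 12%). Members whose genotypes did not overlap numbered 19 as reported (20.4%, against 10% of all genes), 4 with centred arrays (4.30%, against 9.74%), and 22 to 41 with 1 array left out (23.7% to 44.1%, against 16.4% to 30.9%), where fewer arrays overlap by construction. Genes past an adjusted p of 0.05 numbered 22 as reported and 2 to 27 with 1 array left out. Genes at an unadjusted p under 0.05 numbered 1019 as reported, 1778 with array weights and 712 to 2385 with 1 array left out. The median ran from -0.0659 to 0.0217 for complex III, from -0.0874 to -0.0479 for complex IV and from -0.0989 to -0.0148 for complex V with 1 array left out; the cause was not tested. With the replicate number as a block, 44 genes and 0 members passed, but same-numbered arrays did not all deviate together (r = 0.15, -0.07 and 0.24), and not every array correlated best with its own number, so they share only a number. In the other alternatives the 5 complex medians moved by less than the spread between replicates, and so did the differences of the 38 members named by rule, in every alternative that kept them. The median turned positive in 3 settings for complex II and in 2 for complex III. Signal over background was not given, so how far it limits dim members is unknown.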
